A study of Mus musculus with 5 samples.

Results

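Actins and the proteins that bind and brace actin filaments form a group of 10 genes here. They are the actins Actb, Actg1 and Acta2, the transgelins Tagln and Tagln2, the calponins Cnn1 and Cnn2, the tropomyosins Tpm1 and Tpm4, and Srf, the transcription factor that drives many of them. They were picked by name from 55147 gene symbols after their levels in WT and C3G null cells had been seen, so their differences between these groups are given as a description and carry no p-value. All 10 were among the 12518 genes that reached 1 TPM in at least 2 samples. TPM is a transcript's share of its sample after its reads are set against its length.

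RNA sequencing compared mouse embryonic stem (ES) cells with and without C3G, an exchange factor for Rap GTPases that is encoded by Rapgef1. The WT group held 3 samples of E14Tg2a cells, the parent ES cell line. The C3G null group held 2 samples of E14Tg2a cells in which CRISPR had put a targeting vector with a puromycin cassette in place of early Rapgef1 exons. Puromycin-resistant colonies were propagated as clones, and the labels do not say which clone a C3G null sample came from. All cells grew untreated on gelatin in GMEM with serum and LIF, and total RNA was taken with Trizol. No puromycin-selected control without the deletion was analysed here, so selection and cloning cannot be told apart from the loss of C3G. The paper calls the 3 WT and 2 C3G null samples independent without saying in what way. The labels do not say that they came from separate cultures, and p-values measure only the spread between these samples.

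Actin monomers assemble into filaments, and tropomyosins, calponins and transgelins lie along those filaments and set how myosin and severing proteins reach them. Free actin monomers hold the cofactors MRTF-A and MRTF-B in the cytoplasm. When filaments form, the cofactors enter the nucleus and join SRF, which binds a short DNA element called the CArG box and switches on actin and actin-binding genes. A second family of SRF cofactors, the TCFs, answers to ERK instead and switches on immediate early genes.

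Depth could not be read from the deposited values, since TPM sum to between 999998 and 1000001 in every sample and keep no read numbers. Small non-coding RNAs held 63.2% to 67.6% of the TPM in WT and 69.8% to 78.5% in C3G null samples, which lowers every other gene's share in the latter. Levels below are therefore TPM after median-of-ratios scaling, called scaled TPM, and their median log2 fold change over all tested genes was 0.0052, against -0.55 in TPM as deposited and -0.17 after scaling to protein-coding TPM. A log2 fold change is the C3G null mean minus the WT mean of log2(TPM + 1), which understates the change of genes with few TPM. Rapgef1 had 8.67, 8.46 and 8.75 scaled TPM in WT and 6.35 and 6.14 in C3G null samples (log2 fold change -0.41, adjusted p = 0.00444 from limma), so transcripts of the targeted gene were lower and not absent. Of 10 ES cell markers, all 10 passed the filter, and their summed level was 1697 to 2110 scaled TPM in WT and 2583 to 2890 in C3G null samples. Most of that difference was Dppa5a, the only marker of the 10 that rose (log2 fold change 0.71, adjusted p = 0.0307 from limma, and 0.01 in TPM as deposited). Klf4 fell (log2 fold change -0.51, adjusted p = 0.0348 from limma) and the other 8 were not called. By qPCR the paper instead reports Esrrb and Klf4 as higher in C3G null cells. It reports Nanog as lower there, and Oct4 (Pou5f1) and Sox2 without a significant change.

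The CArG box was looked for by name near the start of each gene, because SRF reads it. It has a pair of C, a core of 6 letters that are A or T, and a pair of G, and the pattern is the same on both strands. Promoter windows from RefSeq (GRCm38.p6), from 250 bases before the start of a gene to 50 after it, were given for 8 of the 10 genes, and Actb and Tagln had none. An exact box lay in the windows of Actg1, Cnn2 and Srf, and Acta2 held boxes with 1 core letter other than A or T. Windows of Cnn1, Tagln2, Tpm1 and Tpm4 held neither. The boxes are in capitals, 10 bases to each side are in lower case, and each runs 5′ to 3′ on the minus strand except that of Cnn2.
Acta2, 84 to 75 bases before the start, chr19:34255438-34255467: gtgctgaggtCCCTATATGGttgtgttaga
Acta2, 34 to 25 bases before the start, chr19:34255388-34255417: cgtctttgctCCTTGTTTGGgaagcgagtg
Actg1, 90 to 81 bases before the start, chr11:120348566-120348595: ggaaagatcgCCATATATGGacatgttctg
Cnn2, 56 to 47 bases before the start, chr10:79988534-79988563: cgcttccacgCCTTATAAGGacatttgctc
Srf, 82 to 73 bases before the start, chr17:46556225-46556254: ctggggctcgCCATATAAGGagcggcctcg
Srf, 62 to 53 bases before the start, chr17:46556205-46556234: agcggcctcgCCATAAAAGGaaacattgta
Among all 32851 promoter windows, 1.63% held an exact box and 9.98% held a box with at most 1 other core letter. A match describes these letters only and is no evidence of binding, and a window without one says nothing of SRF.

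All 10 genes were lower in every C3G null sample than in every WT sample, in scaled TPM and in TPM as deposited. Groups separated in this way at 29.3% of all tested genes in scaled TPM and at 75.7% in TPM as deposited, and nothing is read from the count of 10, since the genes were chosen on this contrast. The differences were very unequal. Acta2 kept 1.26% of its WT level, Tagln 5.96% and Tpm1 25.1%, while the other 7 genes kept 49.0% to 78.7%. The median log2 fold change over the 10 genes was -0.66 in scaled TPM and -1.31 in TPM as deposited. The WT samples were close to each other, with a coefficient of variation between 3.70% for Cnn2 and 20.0% for Cnn1.

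**Figure D1:**
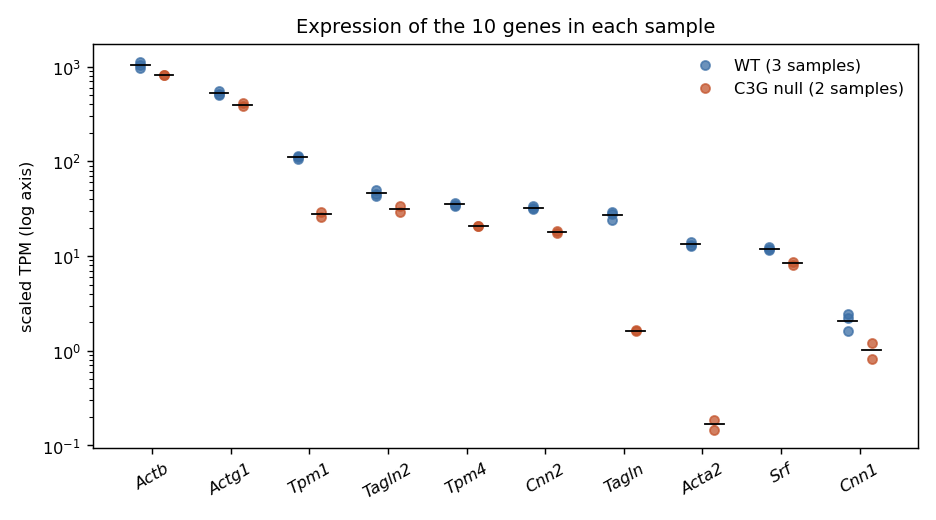
Scaled TPM of the 10 genes on a log axis, with 1 point per sample for WT (3 samples, blue) and C3G null cells (2 samples, red) and a line at each group's mean. The C3G null points lie below the WT points for each gene, by a wide margin for Acta2, Tagln and Tpm1.

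Actb and Actg1 encode the cytoplasmic actins that build the cortex and stress fibres of non-muscle cells, and they were the most abundant of the 10. Actb (ENSMUSG00000029580, chromosome 5 of GRCm38 from 142903115 to 142906754) had 967, 1032 and 1109.9 scaled TPM in WT samples and 819 and 811 in C3G null samples. Its mean went from 1036 ± 71.7 (SD, n = 3) to 815 ± 5.55 scaled TPM (SD, n = 2), or 78.7% of WT. The groups did not overlap, but the gap between them was only about as wide as the spread within WT.

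Actg1 (ENSMUSG00000062825, chromosome 11 from 120345690 to 120348542) had 506, 515 and 548 scaled TPM in WT samples and 409 and 383 in C3G null samples, and its C3G null mean was 75.7% of WT. Both cytoplasmic actins therefore sat a little lower in both C3G null samples. The ratio of Actg1 to Actb within a sample, which no scaling can change, was 0.524, 0.499 and 0.494 in WT and 0.499 and 0.472 in C3G null samples, so the groups overlapped and the balance of the pair did not separate them. Their joint share of protein-coding TPM, another quantity that scaling leaves alone, was 0.617%, 0.601% and 0.635% in WT and 0.408% and 0.415% in C3G null samples. The size of the difference rests on the scaling. The log2 fold change of Actb was -0.34 in scaled TPM, -0.57 after scaling to protein-coding TPM and -1.04 in TPM as deposited, and that of Actg1 was -0.40, -0.62 and -1.10.

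Acta2 encodes smooth muscle alpha actin, the actin of contractile smooth muscle and of myofibroblast stress fibres. Acta2 (ENSMUSG00000035783, chromosome 19 from 34241090 to 34255590) had 12.7, 13.97 and 13.2 scaled TPM in WT samples and 0.146 and 0.188 in C3G null samples. The groups were far apart, with means of 13.3 ± 0.655 (SD, n = 3) and 0.167 ± 0.0299 (SD, n = 2), a ratio of 79.6. Its log2 fold change of -3.61 was the most negative of the 12518 tested genes, and was -5.65 with a pseudocount of 0.1 in place of 1. For 1000 TPM of Actb a sample held 13.1, 13.5 and 11.9 TPM of Acta2 in WT and 0.178 and 0.232 in C3G null samples.

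The other actins belong to striated and enteric smooth muscle. Acta1, the skeletal muscle alpha actin, had 8.45, 8.31 and 9.42 scaled TPM in WT and 0.275 and 0.188 in C3G null samples (log2 fold change -2.98, adjusted p = 2.42e-05 from limma). Actc1, the cardiac alpha actin, had 2.04, 2.50 and 2.64 scaled TPM in WT and the same 0.275 and 0.188 in C3G null samples (log2 fold change -1.46, adjusted p = 0.000460 from limma). Both fell, and neither overlapped between groups. Actg2, the enteric smooth muscle actin, and Actbl2 stayed under 1 TPM in all samples and were not tested. Actin genes have similar coding sequences, and reads that match several of them can be divided among them when transcripts are quantified. Levels of the rare actins beside the abundant Actb and Actg1 are therefore uncertain.

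Tagln encodes transgelin, or SM22 alpha, which cross-links actin in smooth muscle and is widely used as an SRF reporter gene. Tagln (ENSMUSG00000032085, chromosome 9 from 45929619 to 45936058) had 24.2, 28.1 and 29.5 scaled TPM in WT samples and 1.65 and 1.60 in C3G null samples. Its mean went from 27.3 ± 2.74 (SD, n = 3) to 1.63 ± 0.0341 (SD, n = 2), a ratio of 16.8, and its log2 fold change of -3.42 ranked 3 from the most negative. The minor transcripts Tagln-202 and Tagln-203 were at 0 in either C3G null sample as listed, while Tagln-201 carried 94.3% of the gene in WT.

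Tagln2, a transgelin of many non-muscle cells, moved much less. Tagln2 (ENSMUSG00000026547, chromosome 1 from 172500047 to 172507380) had 43.5, 45.8 and 50.1 scaled TPM in WT samples and 34.0 and 29.0 in C3G null samples, 67.7% of WT. In WT it was the more abundant of the pair, and for 100 TPM of Tagln2 a sample held 55.8, 61.5 and 58.9 TPM of Tagln in WT but 4.86 and 5.54 in C3G null samples. The third transgelin, Tagln3, known mostly from neurons, went from 0.825, 0.805 and 1.05 to 1.38 and 1.33 scaled TPM (log2 fold change 0.31, adjusted p = 0.0433 from limma), a rise that turned to -0.04 in TPM as deposited.

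Calponins bind actin filaments and hold back myosin. Cnn1, the smooth muscle calponin, was the rarest of the 10 genes in WT. Cnn1 (ENSMUSG00000001349, chromosome 9 from 22099216 to 22109630) had 1.62, 2.19 and 2.43 scaled TPM in WT samples and 0.826 and 1.22 in C3G null samples, 49.0% of WT. It also varied most between WT samples, and its log2 fold change of -0.61 was -0.49 without C3G null replicate 1. Cnn2 (ENSMUSG00000004665, chromosome 10 from 79988584 to 79996062), a calponin of non-muscle cells, had 31.2, 32.5 and 33.6 scaled TPM in WT samples and 18.5 and 17.5 in C3G null samples, 55.6% of WT. Cnn3, the third calponin, had 65.5, 70.1 and 65.1 scaled TPM in WT and 59.3 and 71.3 in C3G null samples, so its groups overlapped (log2 fold change -0.04, adjusted p = 0.798 from limma). For 100 TPM of Cnn3 a sample held 47.7, 46.3 and 51.7 TPM of Cnn2 in WT and 31.3 and 24.6 in C3G null samples.

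Tropomyosins are coiled-coil dimers that polymerise along actin, and each gene makes several forms. Tpm1 (ENSMUSG00000032366, chromosome 9 from 67022590 to 67049406) had 105, 111 and 115 scaled TPM in WT samples and 25.9 and 29.3 in C3G null samples. The mean went from 109.9 ± 4.90 (SD, n = 3) to 27.6 ± 2.44 (SD, n = 2), a ratio of 3.98, and its log2 fold change of -1.96 ranked 35 from the most negative. Tpm4 (ENSMUSG00000031799, chromosome 8 from 72134975 to 72153142), which makes a short form in these cells, had 33.7, 36.7 and 34.8 scaled TPM in WT samples and 20.9 and 20.99 in C3G null samples, 59.6% of WT.

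Tpm2 and Tpm3, the other tropomyosin genes, were not among the 10. Tpm2, a gene of long muscle-type forms, had 16.8, 18.4 and 20.7 scaled TPM in WT and 7.80 and 8.03 in C3G null samples (log2 fold change -1.13, adjusted p = 0.000704 from limma). Tpm3, whose short forms dominate here, had 89.4, 87.4 and 95.2 scaled TPM in WT and 72.2 and 79.0 in C3G null samples (log2 fold change -0.26, adjusted p = 0.0601 from limma), apart in these samples but short of the threshold of 0.05. The make-up of the tropomyosin pool differed with the group. Tpm1 held 42.8%, 43.7% and 43.2% of the summed TPM of Tpm1 to Tpm4 in WT and 20.4% and 21.4% in C3G null samples, and Tpm3 held 36.6%, 34.5% and 35.9% in WT and 56.95% and 57.5% in C3G null samples. Within each sample the most abundant tropomyosin gene was Tpm1 in WT and Tpm3 in C3G null cells.

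The lower level of Tpm1 was not shared by all its transcripts. The gene has an outer start, used by the long forms typical of muscle and stress fibres, and an inner start, used by short forms, and its coding transcripts stop at an outer or an inner 3′ end. Long forms here have coding sequences of 843 to 861 bases and short forms of 735 to 753, and coding transcripts of other lengths, at most 0.308 scaled TPM in a sample, were left out. Long forms with the outer 3′ end had 53.9, 62.998 and 64.8 scaled TPM in WT samples and 1.89 and 1.47 in C3G null samples, 2.78% of WT. Their mean went from 60.6 ± 5.86 (SD, n = 3) to 1.68 ± 0.2996 (SD, n = 2), a ratio of 36.0. Long forms with the inner 3′ end had 16.2, 15.5 and 16.5 scaled TPM in WT and 7.45 and 7.68 in C3G null samples, 47.1% of WT.

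Short forms behaved differently. Those with the outer 3′ end had 12.7, 13.0 and 10.8 scaled TPM in WT and 12.3 and 14.7 in C3G null samples, and the groups overlapped, also in TPM as deposited. Those with the inner 3′ end were listed at 0, 0 and 0.0907 scaled TPM in WT and at 0.761 and 1.81 in C3G null samples. Summed, short forms had 12.67, 13.05 and 10.88 scaled TPM in WT and 13.06 and 16.5 in C3G null samples, so both C3G null samples lay above WT, the lower of them by less than the spread within WT, whereas in TPM as deposited the groups overlapped. Long forms thus made up 84.7%, 85.7% and 88.2% of the summed long and short coding forms in WT and 41.7% and 35.6% in C3G null samples, a share that no scaling changes. At the level of single transcripts, Tpm1-213, which was the most abundant in WT, kept 2.72% of its WT level and Tpm1-216 kept 1.81%. Tpm1-212, a short form, had 2.57, 1.30 and 0.499 scaled TPM in WT and 6.88 and 9.57 in C3G null samples, the opposite direction. The transcripts overlap along most of their length, and their TPM come from dividing shared reads among 21 listed transcripts, so single transcripts are less certain than the gene's sum.

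**Figure D2:**
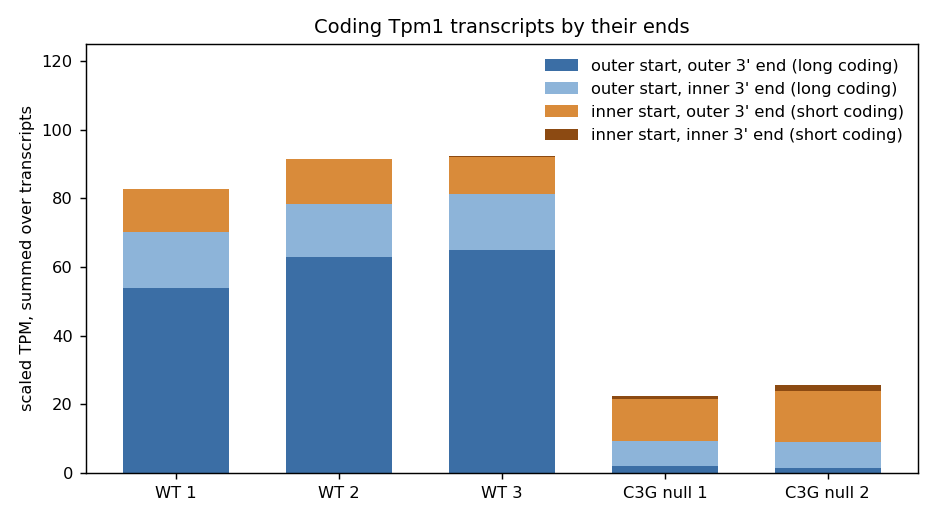
Scaled TPM of long and short coding Tpm1 transcripts in each sample, stacked by whether they start at the outer or inner start and stop at the outer or inner 3′ end. The outer start with the outer 3′ end (dark blue) fills 53.9 to 64.8 scaled TPM in WT and 1.47 to 1.89 in C3G null samples, while the inner start with the outer 3′ end (orange) spans 10.8 to 14.7 in all 5 samples.

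The long and short split could be followed in the other tropomyosin genes. Long forms of Tpm2 had 16.5, 18.1 and 20.1 scaled TPM in WT and 7.58 and 7.90 in C3G null samples. Short forms of Tpm3 had 78.0, 79.7 and 86.2 scaled TPM in WT and 64.3 and 71.8 in C3G null samples, 83.7% of WT. Across the 10 genes, 35 transcripts had a WT mean of at least 1 scaled TPM, and 28 of them were lower and 1, Tpm1-212, was higher in every C3G null sample. That level was set on WT alone, so a transcript seen only in C3G null samples could not be counted. Tpm1-204 was such a transcript, at 0 in every WT sample and 0.761 and 1.71 scaled TPM in C3G null samples. Over all 21935 transcripts at that level 22.8% were lower and 23.3% higher in this way. Nothing is read from the count, since the genes were chosen on this contrast. In Actb and Actg1 the main transcripts moved with their gene, with Actb-201 at 80.3% and Actg1-202 at 79.3% of WT.

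Srf (ENSMUSG00000015605, chromosome 17 from 46548329 to 46556175) had 12.6, 11.97 and 11.5 scaled TPM in WT samples and 8.13 and 8.67 in C3G null samples. The groups did not overlap, and the mean went from 12.01 ± 0.561 (SD, n = 3) to 8.40 ± 0.382 (SD, n = 2), 69.9% of WT. Its log2 fold change was -0.47 in scaled TPM, -1.09 in TPM as deposited and -0.25 once length and GC content of the transcripts were corrected for.

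In WT the order of levels was Actb, Actg1, Tpm1, Tagln2, Tpm4, Cnn2, Tagln, Acta2, Srf and Cnn1. Tpm4 and Cnn2 were nearly level, at 35.1 ± 1.53 and 32.4 ± 1.20 scaled TPM (SD, n = 3), and so were Acta2 and Srf, at 13.3 ± 0.655 and 12.01 ± 0.561. In C3G null cells Tagln and Acta2 lay below Srf, and Acta2 was the lowest of all 10 at 0.167 scaled TPM. Tagln2 and Tpm1 overlapped there, at 34.0 and 29.0 against 25.9 and 29.3 scaled TPM.

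**Figure D3:**
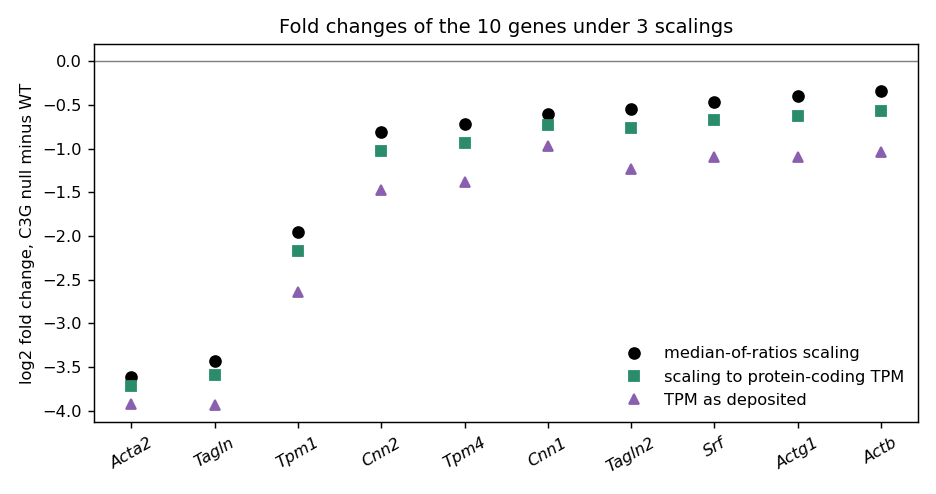
Log2 fold change (C3G null minus WT) of the 10 genes under median-of-ratios scaling, scaling to protein-coding TPM and TPM as deposited. Each gene is below 0 under all 3, from -3.61 for Acta2 to -0.34 for Actb in scaled TPM and from -3.93 for Tagln to -0.97 for Cnn1 in TPM as deposited.

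The 10 genes lie on 8 chromosomes, and Tagln, Cnn1 and Tpm1 share chromosome 9 at separate places. The nearest tested gene on each side of every one of them gave 20 neighbours. Of these, 5 were called lower (Fbxl18, Faap100, Sidt2, Igsf9 and Ptk7), 4 were called higher (Lipo3, Aim2, Elof1 and Zfp961) and 11 were not called at an adjusted p under 0.05 from limma, against 16.6% lower and 14.1% higher of all 12518 tested genes.

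By the distance between profiles over the 5 samples, taken as log2(scaled TPM + 1) less the WT mean, the tested gene most like Tagln was Acta2 at a distance of 0.313. Thbs1 at 0.364 and Grb10 at 0.435 followed, with 15.4, 15.5 and 15.4 scaled TPM of Thbs1 in WT and 0.874 and 0.652 in C3G null samples. For Tpm1 the nearest were Tgm1 at 0.208, Clu at 0.223 and Bmp1 at 0.226. For Actb they were Gm16201, Nr6a1 and Zfp40, all at 0.0527 to 0.0545, and many genes have so flat a profile. With 1 added before the log, genes with few TPM can lie close to others though their ratios differ. Acta2 had a ratio of WT to C3G null of 79.6, against 16.8 for Tagln. Bmp1 had 3.54, 3.42 and 3.37 scaled TPM in WT and 0.210 and 0.155 in C3G null samples, while Tpm1 kept 25.1% of its WT level.

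Across the families, the 8 other actin, transgelin, calponin and tropomyosin genes gave 6 that were tested, of which 3 fell (Acta1, Actc1 and Tpm2), 1 rose (Tagln3) and 2 were not called (Cnn3 and Tpm3), with a median log2 fold change of -0.70. In TPM as deposited 5 of them fell and 0 rose, where 56.8% of all tested genes fell and 1.45% rose.

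SRF works with cofactors. Mrtfa, encoding MRTF-A, had 2.71, 2.35 and 1.996 scaled TPM in WT and 1.93 and 1.77 in C3G null samples (log2 fold change -0.23, adjusted p = 0.145 from limma). Mrtfb, encoding MRTF-B, fell a little, from 3.98, 3.77 and 3.67 to 2.77 and 2.82 scaled TPM (log2 fold change -0.34, adjusted p = 0.0114 from limma). Myocd, the cofactor of smooth and cardiac muscle, did not pass the filter.

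Fhl2, a LIM protein that binds SRF and is itself a target of it, had 2.40, 2.24 and 2.77 scaled TPM in WT and 0.308 and 0.155 in C3G null samples (log2 fold change -1.49, adjusted p = 0.000430 from limma).

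Other MRTF-type SRF targets encode filament cross-linkers, adhesion plaque proteins and myosin chains. Of 34 listed genes 29 were tested, and 25 of these (86.2%) fell, 2 rose and 2 were not called, beside the 16.6% and 14.1% of all tested genes given above. The median log2 fold change of the list was -0.81. This list and the others reported were drawn up with earlier results of these data known, so nothing is read from their counts. In TPM as deposited, where 56.8% of all tested genes fell, 27 fell and 0 rose. Flnc, the muscle filamin, had 10.8, 10.4 and 9.46 scaled TPM in WT and 1.04 and 1.09 in C3G null samples (log2 fold change -2.44, adjusted p = 3.73e-05 from limma). Ccn1, a secreted matricellular protein, had 13.1, 12.2 and 12.8 scaled TPM in WT and 1.62 and 1.49 in C3G null samples (log2 fold change -2.42, adjusted p = 2.42e-05 from limma). Both groups of samples were well apart for each. Cald1, encoding caldesmon, and Zyx, encoding zyxin, followed with log2 fold changes of -2.39 and -1.81.

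Both MRTF-type targets that rose in scaled TPM did not in TPM as deposited. Lima1, encoding the actin cross-linker EPLIN, had 6.97, 5.95 and 5.90 scaled TPM in WT and 9.53 and 12.2 in C3G null samples (log2 fold change 0.70, adjusted p = 0.00805 from limma), but its log2 fold change was 0.08 in TPM as deposited. Csrp2, a LIM protein of smooth muscle, had 68.5, 76.4 and 79.6 scaled TPM in WT and 129 and 112 in C3G null samples (log2 fold change 0.68, adjusted p = 0.00598 from limma), and -0.01 in TPM as deposited.

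TCF-type SRF targets are immediate early genes and feedback phosphatases of the ERK pathway. Of 15 listed genes 10 were tested, and 6 fell, 0 rose and 4 were not called, with a median log2 fold change of -0.49, where 16.6% of all tested genes fell and 14.1% rose. At an unadjusted p under 0.05 limma gave 2 rises, Ier3 and Mcl1. In TPM as deposited, where 56.8% of all tested genes fell, 8 fell and 0 rose, and there limma gave 0 rises in this list, the family members and the MRTF-type targets at an unadjusted p under 0.05 too. Dusp5, a nuclear ERK phosphatase, had 4.40, 4.59 and 4.66 scaled TPM in WT and 1.76 and 1.79 in C3G null samples (log2 fold change -0.999, adjusted p = 0.000362 from limma). Junb, an AP-1 subunit, had 14.7, 14.6 and 13.2 scaled TPM in WT and 6.69 and 6.99 in C3G null samples (log2 fold change -0.95, adjusted p = 0.000522 from limma). Egr1 fell slightly, from 1.97, 1.95 and 1.69 to 1.25 and 1.26 scaled TPM (log2 fold change -0.35, adjusted p = 0.0210 from limma), and Fos stayed near 1 scaled TPM in every sample (log2 fold change -0.09, adjusted p = 0.400 from limma).

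The machinery that nucleates, cuts and recycles filaments gave a different count. Of 39 listed genes 38 were tested, and 8 fell (21.1%), 3 rose and 27 were not called, with a median log2 fold change of -0.14. That share of falls is near the 16.6% of all tested genes. The count of falls moved with the scaling and the samples. It was 29 in TPM as deposited and 19 after scaling to protein-coding TPM, and it was 3 without WT replicate 2 or without C3G null replicate 1, and 5 without WT replicate 3 or without C3G null replicate 2. With the replicate number as a block it was 4.

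Gsn, encoding the filament-severing protein gelsolin, had 5.87, 6.67 and 7.73 scaled TPM in WT and 1.96 and 1.79 in C3G null samples (log2 fold change -1.43, adjusted p = 0.000560 from limma). Wdr1, which works with cofilin, had 47.6, 49.5 and 52.0 scaled TPM in WT and 35.0 and 33.6 in C3G null samples (log2 fold change -0.52, adjusted p = 0.00398 from limma). Twf2, encoding the monomer-binding protein twinfilin-2, rose from 14.7, 14.9 and 18.3 to 40.2 and 37.5 scaled TPM (log2 fold change 1.24, adjusted p = 0.000879 from limma), and its log2 fold change was 0.57 in TPM as deposited. Coro1b, a coronin, rose from 18.1, 19.1 and 18.5 to 23.8 and 26.5 scaled TPM (log2 fold change 0.42, adjusted p = 0.00906 from limma), with -0.25 in TPM as deposited. Tmsb10, a thymosin and the most abundant monomer-binding gene of the list, rose from 362, 377 and 395 to 478 and 503 scaled TPM (log2 fold change 0.37, adjusted p = 0.0383 from limma), with -0.32 in TPM as deposited. Of the other abundant monomer-binding genes, Cfl1, encoding cofilin, did not pass the test (log2 fold change 0.25, adjusted p = 0.117 from limma). Nor did Pfn1, encoding profilin (log2 fold change 0.14, adjusted p = 0.268 from limma). In TPM as deposited their log2 fold changes were -0.45 and -0.55. Dstn and the thymosin gene Tmsb4x leaned lower and did not pass either (log2 fold changes -0.26 and -0.24, adjusted p = 0.0929 and 0.109 from limma). In TPM as deposited both passed as falls, at -0.95 and -0.93.

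**Figure D4:**
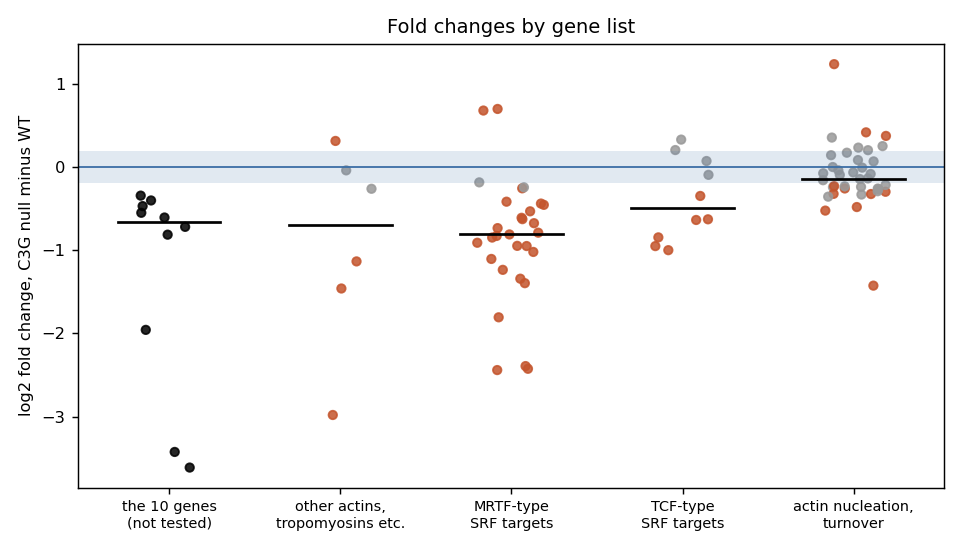
Log2 fold change (C3G null minus WT, scaled TPM) of each gene in the 10-gene group (black, not tested) and in 4 lists, where red points passed an adjusted p of 0.05 in limma and grey points did not. Black bars are list medians, from -0.81 for MRTF-type targets to -0.14 for filament turnover, and the shaded band holds the middle of all tested genes, from their 25th percentile at -0.19 to their 75th at 0.20.

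CArG boxes were counted in the same way in these lists. Among genes with a promoter window, 6 of 29 MRTF-type targets (20.7%), 2 of 11 TCF-type targets (18.2%), 2 of 7 other family members (28.6%) and 1 of 33 turnover genes (3.03%) held an exact box. Over all 27025 genes with a window the share was 1.81%.

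Acta2, Tagln and Cnn1 are also smooth muscle markers, so other markers were read beside them. Without these 3 genes the smooth muscle list held 7 genes, of which 5 stand among the MRTF-type targets as well. Of the 7 only Smtn and Des passed the filter, the defining markers Myh11, Myocd, Lmod1, Synpo2 and Mylk stayed at or below 0.248 scaled TPM, and the summed level was 8.57 to 9.69 scaled TPM in WT and 5.58 to 5.83 in C3G null samples. Markers of trophectoderm, 7 of 10 past the filter and mostly the keratins Krt8 and Krt18, summed to 164 to 193 scaled TPM in WT and 28.4 to 29.6 in C3G null samples. Markers of mesoderm, 2 of 10 past the filter, summed to 6.96 to 8.33 and 3.16 to 4.44, markers of fibroblasts, 3 of 10 past the filter, to 5.04 to 5.85 and 3.22 to 3.803, and markers of primitive endoderm, 4 of 10 past the filter, to 39.0 to 42.3 and 36.2 to 38.0. The last sum was carried by Sparc, which fell (log2 fold change -0.76, adjusted p = 0.00153 from limma), while the other tested endoderm markers rose, Cubn by 1.31, Lama1 by 0.71 and Dab2 by 0.69 on the log2 scale (adjusted p = 0.000291, 0.00128 and 0.0247 from limma), of which only Cubn passed in TPM as deposited. Gata6, Sox17 and Pdgfra, below the filter, were also higher in both C3G null samples than in any WT sample. The paper's qPCR went the other way for Gata6 and Sox17, which it reports as repressed in C3G null cells. It reports Eomes and Brachyury (T) as repressed too. Pdgfra is in the fibroblast list too, whose 3 tested genes fell: Col1a1, Thy1 and Twist1 (log2 fold changes -0.96, -0.36 and -0.44, adjusted p = 0.00135, 0.0227 and 0.0209 from limma). Of the tested mesoderm markers, T fell (log2 fold change -1.15, adjusted p = 0.00254 from limma) and Eomes was not called (log2 fold change 0.02, adjusted p = 0.904 from limma). No gene of the 6 marker lists was at 0 in all samples. In bulk RNA, fewer cells of a type and less RNA per cell cannot be told apart, and the part of these markers in the levels of the 10 genes was not tested.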

How the data were processed

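Total RNA of E14Tg2a mouse ES cells, 3 WT and 2 C3G null samples, was sequenced by the authors as paired-end reads, which they checked with FastQC and aligned to GRCm38 with STAR. The submitters' processing notes name bcl2fastq 2.20, FastQC 0.11.7, STAR 2.5.1b and RSEM 1.2.31, without roles. The deposited values are TPM for 142647 Ensembl transcripts. Read counts are not used here, so depth and counting error are unknown, and the number of samples limits the precision.

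TPM were summed by gene symbol through the GENCODE M21 annotation of GRCm38, which matched 141524 transcripts and left out 1123. Each sample was divided by a median-of-ratios size factor, and genes with at least 1 TPM as deposited in at least 2 samples were tested with limma 3.58.1 (R 4.3.3) on log2(scaled TPM + 1), two-sided, with a mean-variance trend and Benjamini-Hochberg adjustment (threshold 0.05). No gene set was tested, and 1 list of pathway regulators is not reported here.

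The 10 genes, the gene lists and the alternatives were chosen with earlier results of these data known. Named are the 10 genes, all other family members, Mrtfa, Mrtfb, Rapgef1, Fhl2, the largest rises and falls of each reported list past the threshold (up to a pair each way) and the 3 nearest profiles of Tagln, Tpm1 and Actb. Further genes in the lists (Cald1, Zyx, Egr1, Fos, Ier3, Mcl1, Tmsb10, Cfl1, Pfn1, Tmsb4x and Dstn), the named markers, the neighbours and the single transcripts were chosen after their values were seen. Tpm1 ends within 1 kb of the outermost end were called outer. Alternatives were TPM as deposited, scaling to protein-coding TPM, a pseudocount of 0.1, no filter, a filter of 5 TPM, a replicate block, a length and GC correction, both together, and each sample left out. Tables and figures used Python 3.11.15, pandas 2.3.3 and matplotlib 3.10.9.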

Additional observations from a re-analysis of the deposited data

How the results depend on the processing

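The scaling had the largest effect. Of 12518 tested genes 1760 rose and 2083 fell in scaled TPM, against 181 and 7109 in TPM as deposited and 707 and 3732 after scaling to protein-coding TPM, so that 45.8%, 2.48% and 15.9% of the calls were rises. With a filter of 5 TPM 1145 genes fell, of fewer tested. Leaving out each sample gave 909 to 1579 rises and 1385 to 1880 falls, both lowest without WT replicate 2. Rises also fell short of the main count by over 1.5 times with C3G null replicate 1 left out (981) or with replicate 2 of that group left out (990). Where 1 C3G null sample was left, it was assumed to vary like the WT samples.

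Of the lists, 5 other family members fell in TPM as deposited against 3 in scaled TPM. Turnover genes gave 8 falls in scaled TPM, 29 in TPM as deposited, 19 after scaling to protein-coding TPM, 4 with no filter, 4 with the replicate block and 3 to 10 when a sample was left out. The cause of these moves was not tested, and the other list counts stayed within 1.5 times. Over all tested genes, longer transcripts had lower log2 fold changes (Spearman rank correlation -0.314, and 0.00873 after the length and GC correction). With that correction 22 MRTF-type targets fell against 25, and 5 TCF-type targets against 6. Other family members gave 4 falls against 3, and turnover genes 11 against 8.

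WT and C3G null samples share replicate numbers 1 and 2, and with only these pairs the numbers do not show a pairing: deviations from the group means correlated at -0.18 for number 1 and 0.18 for number 2. With the replicate block 1488 genes rose and 1814 fell, and 1218 and 1486 with the length and GC correction added. The log2 fold changes of the 10 genes kept their sign under every alternative in which they had a value, and Cnn1 had none with the filter of 5 TPM. Nothing is read from this, since the genes were chosen on this contrast.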
